A study of Mus musculus with 10 samples.

Results

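Id1, Id2, Id3, Id4 and Tmem100 are genes that BMP signaling is known to induce. The members were chosen with earlier results of these data known, and their rows were then taken from the deposited table by gene symbol alone. All 5 were found among the 29583 genes of the table, of which 22036 carry an Ensembl identifier. The table holds mRNA sequencing of MC3T3-E1 cells, a mouse line of osteoblast precursors from newborn C57BL/6 skull (the study used subclone 14 at the third passage), grown for 5 or 10 days in medium to which β-ecdysterone, a sterol made by plants, had been added at 0, 100, 150 or 200 μM. There was 1 library per dose and day, which gives 6 treated libraries and 2 at 0 μM. Another 2 libraries, A-5 and B-4, were labelled untreated without a time and were used only as values and in alternatives. The titles name MC3T3-E1 cells, whereas the source field names mesenchymal stem cells of bone marrow. Runx2, the master gene of osteoblasts, had at least 88.0 CPM in every library (counts per 1000000 counts). At 0 μM on days 5 and 10, the 13 osteoblast markers listed ranged from Alpl (0 and 0.0632 CPM) to Col1a2 (11769 and 14232 CPM). The level of Runx2 alone therefore does not settle which label holds, but the study's methods describe the sequenced cells as MC3T3-E1. RNA extraction is described with n = 3, but the table has no repeat of a dose and day, and the doses therefore served as replicates of treated cells. In bulk RNA, fewer cells of a type and less RNA per cell cannot be told apart.

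Id proteins are helix-loop-helix proteins that lack the basic region needed to bind DNA. They pair with E proteins (the products of Tcf3, Tcf4 and Tcf12), which then cannot bind DNA with tissue-specific partners such as Twist1. BMP ligands activate receptor kinases that phosphorylate Smad1, Smad5 and Smad9, and these Smads enter the nucleus with Smad4 and act on Id promoters within hours. Tmem100 encodes a small transmembrane protein best known in endothelium, where the ligands BMP9 and BMP10 induce it through the receptor Acvrl1 (ALK1).

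By the GENCODE M21 annotation of GRCm38, all 5 genes are protein-coding. Id1 (ENSMUSG00000042745) lies on chromosome 2 at 152736251 to 152737410 and Id3 (ENSMUSG00000007872) on chromosome 4 at 136143497 to 136145755, both on the plus strand. Id2 (ENSMUSG00000020644) lies on chromosome 12 at 25093799 to 25097140 on the minus strand. Id4 (ENSMUSG00000021379) lies on chromosome 13 at 48261228 to 48266026 and Tmem100 (ENSMUSG00000069763) on chromosome 11 at 90030348 to 90036508, both on the plus strand. Exons of Id4 share 82 bases with the antisense gene A330033J07Rik and 171 bases with Gm49291, both on the minus strand. No strand setting is given for the counting, and reads of Id4 and of these 2 genes, neither of which is a row of the table, cannot be told apart where they overlap.

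Promoter sequence from RefSeq (GRCm38.p6), 250 bases before the RefSeq start, was at hand for 3 of the 5 members, Id2, Id3 and Id4. It is shown because Id2 and Id3 varied together over the libraries and Id4 did not. Capitals mark GGCGCC, the GC-rich element bound by Smad1 and Smad5, or GTCT, the short Smad element, and each run is 5′ to 3′ on the strand of its gene. The Id2 run covers the 89 bases of the window outside annotated exons, which lie inside the annotated gene, downstream of the start of its longest transcript (chr12:25096254-25096342, minus strand), the Id3 run covers 30 bases, since the whole window lies within exons of longer transcripts (chr4:136143741-136143770, plus strand), and the Id4 run is the whole window (chr13:48260866-48261115, plus strand).
Id2: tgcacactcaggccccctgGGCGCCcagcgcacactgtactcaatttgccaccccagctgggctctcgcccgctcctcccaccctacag
Id3: tggacccttggcgGTCTgttttgaataagg
Id4: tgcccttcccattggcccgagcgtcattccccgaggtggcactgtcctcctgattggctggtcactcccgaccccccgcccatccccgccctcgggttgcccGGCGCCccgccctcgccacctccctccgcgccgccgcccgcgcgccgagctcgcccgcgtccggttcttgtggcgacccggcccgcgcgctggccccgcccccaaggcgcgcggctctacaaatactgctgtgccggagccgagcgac

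GGCGCC was present 231 to 226 bases before the start of Id2 and 148 to 143 bases before that of Id4, with no match in the Id3 window. GTCT, searched on both strands, was present 1 time in the Id2 window and 2 times in the Id3 window, the nearer at 68 to 65 bases before the start, and was not matched in the Id4 window. Of 32851 mouse promoter windows of the same length, 9.59% held GGCGCC and 82.9% held GTCT. The combined element, GGCGCC followed after 5 bases by GTCT or AGAC, occurred in 34 windows (0.103%), and in none of these 3 members. The windows differed in base composition, with 62.8% G and C in Id2 and in Id3 and 75.6% in Id4. These matches describe the letters of the windows only.

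The libraries held 27108562 to 58218009 counts. Values are given as CPM, counts scaled to a TMM-normalized library size of 1000000, and intervals of single libraries cover counting error only. Between genes, levels were compared as FPKM, which the authors scaled by transcript length. Genes were called by edgeR's quasi-likelihood test where the adjusted p (Benjamini-Hochberg over all genes tested) was under 0.05 and the change exceeded 1 on the log2 scale in either direction. No replicate cultures are stated, so these p-values measure the spread between libraries of different dose.

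Tmem100 was the member that differed between treated cells and cells at 0 μM. At 0 μM it had 1.17 CPM on day 5 and 0.853 CPM on day 10, from 59 and 27 counts. On day 5 it reached 8.97 CPM at 100 μM, 14.8 CPM at 150 μM and 14.2 CPM at 200 μM. On day 10 the values were 17.5 CPM at 100 μM, 14.6 CPM at 150 μM and 15.6 CPM at 200 μM. Every treated library lay above both libraries at 0 μM. How many of all genes separated in this way was not counted. Of 16794 genes tested, 7280 had an adjusted p under 0.05 in edgeR's test. Mean CPM was 14.3 ± 2.86 (SD, n = 6) in treated cells compared to 1.01 ± 0.22 (SD, n = 2) at 0 μM. The log2 fold change was 3.77 (SE 0.28, 95% interval 3.14 to 4.40), or 13.6-fold, with an adjusted p of 1.1e-05 in the quasi-likelihood test. By p-value it ranked 198 of 16794 genes tested.

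Id3 was the Id gene with the largest ratio of its highest to its lowest treated library (3.94-fold). It had 40.9 CPM on day 5 and 36.1 CPM on day 10 at 0 μM. In treated cells on day 5 it had 73.1 CPM at 100 μM, 55.7 CPM at 150 μM and 92.7 CPM at 200 μM. On day 10 it had 26.3 CPM at 100 μM, 103.6 CPM at 150 μM and 56.3 CPM at 200 μM. Of the 6 treated libraries, 5 lay above both libraries at 0 μM, and 100 μM on day 10 lay below both. The log2 fold change was 0.82 (SE 0.40, 95% interval -0.08 to 1.72, adjusted p 0.127, edgeR), which did not pass. The interval takes in 0 and also a change beyond the fold limit. Without 100 μM on day 10 the value was 0.98 with an adjusted p of 0.0165, still under the fold limit, and without 150 μM on day 10 it was 0.54 with an adjusted p of 0.180.

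Id2 shared its highest and lowest treated library with Id3. At 0 μM it had 11.1 CPM on day 5 and 9.32 CPM on day 10. Treated cells on day 5 had 19.3 CPM at 100 μM, 15.8 CPM at 150 μM and 18.1 CPM at 200 μM. On day 10 they had 7.27 CPM at 100 μM, 23.1 CPM at 150 μM and 11.2 CPM at 200 μM. Again 100 μM on day 10 lay below both libraries at 0 μM, and 200 μM on day 10 lay at the level of 0 μM on day 5. The log2 fold change was 0.63 (SE 0.34, 95% interval -0.14 to 1.40, adjusted p 0.164, edgeR) and did not pass. Without 100 μM on day 10 it was 0.77 with an adjusted p of 0.0391, under the fold limit, and without 150 μM on day 10 it was 0.36 with an adjusted p of 0.204.

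Id1, the Id gene most often used as a readout of BMP activity, showed no shift of the group. It had 11.8 CPM on day 5 and 9.79 CPM on day 10 at 0 μM. On day 5 treated cells had 10.5 CPM at 100 μM, 9.94 CPM at 150 μM and 12.2 CPM at 200 μM. On day 10 they had 5.58 CPM at 100 μM, 16.5 CPM at 150 μM and 9.41 CPM at 200 μM. The treated libraries lay on both sides of those at 0 μM. The log2 fold change was -0.01 (SE 0.31, 95% interval -0.70 to 0.68, adjusted p 0.983, edgeR), and the interval leaves out a change of the size of the fold limit in either direction.

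Id4 differed from Id1, Id2 and Id3 in which libraries were high. At 0 μM it had 161.3 CPM on day 5 and 160.8 CPM on day 10. On day 5 it had 267.4 CPM at 100 μM, 160.9 CPM at 150 μM and 166.7 CPM at 200 μM. On day 10 it had 128.8 CPM at 100 μM, 86.4 CPM at 150 μM and 102.5 CPM at 200 μM. The day 5 libraries lay at or above the level of 0 μM, and all 3 libraries of day 10 lay below it. Over both days the log2 fold change was -0.19 (SE 0.25, 95% interval -0.74 to 0.37, adjusted p 0.567, edgeR), which did not pass.

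In all, 1 of 5 members was called higher in treated cells, beside 13.4% of the genes tested, and 0 of 5 were called lower, beside 5.98% of the genes tested. A share of this size is no result about the group. The median log2 change over all genes tested was 0.05. The 4 Id genes missed the threshold, which does not show that they were equal in treated cells and at 0 μM.

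**Figure D1:**
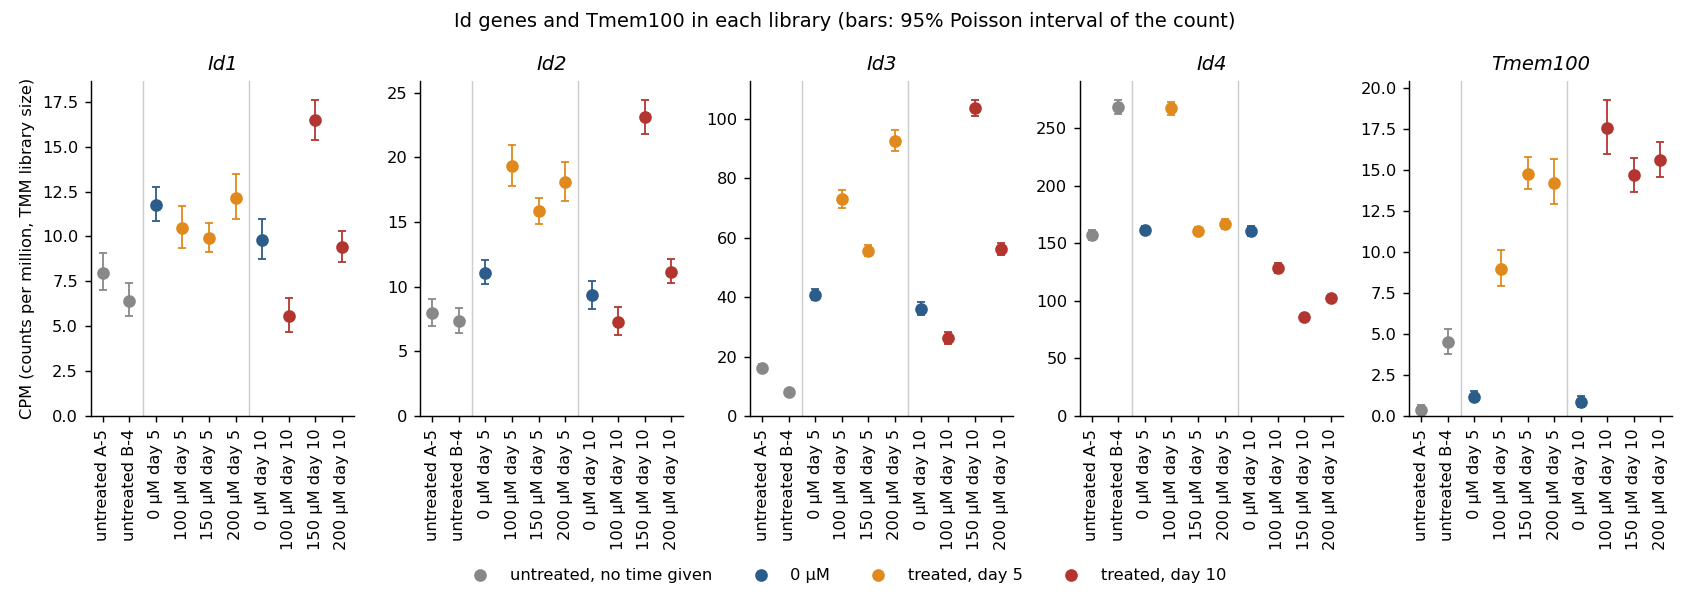
CPM of Id1, Id2, Id3, Id4 and Tmem100 (1 panel each, linear axes from 0) in each of the 10 libraries, with bars for the 95% Poisson interval of the count; colours mark untreated, 0 μM, treated on day 5 and treated on day 10. The 6 treated libraries of Tmem100 lie between 8.97 and 17.5 CPM, all above the libraries at 0 μM, whereas treated libraries of Id1, Id2 and Id3 lie on both sides.

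Several values moved with treatment beside Tmem100. All 14 genes of a proliferation list (Mki67, Top2a, Mcm5 and others) were called lower in treated cells, and their summed level was 803 to 1448 CPM in treated libraries compared to 2854 and 3151 CPM at 0 μM. Endothelial markers were low in every library. Of 10 listed, 5 had enough counts for the test and 3 were called higher, and their summed level was 5.55 to 8.48 CPM in treated libraries compared to 1.94 and 2.09 CPM at 0 μM. Most of that sum was Vwf, the von Willebrand factor gene, with 4.57 ± 1.04 CPM (SD, n = 6) in treated cells (log2 fold change 2.16, SE 0.30, adjusted p 0.00037, edgeR). The others called were Cdh5 (log2 fold change 3.44, adjusted p 0.00051) and Tek (1.77, adjusted p 0.0327) by edgeR, both under 1 CPM on average. Pecam1 (0.75, adjusted p 0.0937) and Tie1 (-0.98, adjusted p 0.245) were tested by edgeR and not called. No endothelial marker was at 0 in all 10 libraries. Kdr, Emcn, Erg, Sox17 and Cldn5, too low for the test, had 43, 25, 10, 2 and 1 counts over all 10. These low genes were named after their values were seen. Of 13 osteoblast markers tested, 6 were called higher and 1 lower. Of the other cell type lists, 2 of 5 macrophage, 1 of 5 adipocyte, 2 of 5 muscle and 3 of 6 chondrocyte genes tested were called higher, and 1 macrophage gene lower. The part of proliferation and of endothelial genes in the level of Tmem100 was not tested.

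The question whether the members differed between day 5 and day 10 was asked within the 6 treated libraries. Id4 had lower values on day 10, with 106 ± 21.4 CPM (SD, n = 3) compared to 198 ± 59.9 CPM (SD, n = 3) on day 5. The ranges of the 2 days did not overlap, but how many of all genes separated in this way was not counted. The log2 change of Id4 was -0.90 (SE 0.21, 95% interval -1.37 to -0.44), with an unadjusted p of 0.0017 and an adjusted p of 0.0532 in edgeR's test. It did not pass, and its size also lay under the fold limit. Without 150 μM on day 5 (-1.03, adjusted p 0.0442) or without 100 μM on day 10 (-1.07, adjusted p 0.0431) Id4 was called lower, and with dose as a block it had -0.88 and an adjusted p of 0.0066, under the fold limit. Over all alternatives the adjusted p was 0.00033 to 0.205. The same libraries also differed in quality measures between days. Mitochondrial genes took 6.70 to 10.6% of counts on day 10 compared to 4.52 to 5.99% on day 5, and the 10 most abundant genes took 12.8 to 16.9% compared to 9.61 to 10.3%, and their part in the level of Id4 was not tested. Tmem100 had a log2 change of 0.33 (SE 0.19, adjusted p 0.399), Id2 one of -0.34 (SE 0.33, adjusted p 0.653), Id3 one of -0.24 (SE 0.39, adjusted p 0.800) and Id1 one of -0.03 (SE 0.31, adjusted p 0.969), all by edgeR. Thus 0 of 5 members were called higher, beside 0.905% of genes tested, and 0 of 5 lower, beside 0.144% of genes tested. At an unadjusted p under 0.05 in edgeR's test the count was 1 (Id4), beside 2930 of 16020 genes tested. DESeq2 and limma on log2(FPKM + 1) each called 0. For Id4, DESeq2 gave -0.91 with an adjusted p of 0.00033, short only of the fold limit, and limma gave -0.94 with an adjusted p of 0.0672.

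Within each day the treated libraries can be set against the single library at 0 μM. The fitted log2 fold change of Tmem100 was 3.44 (SE 0.35) on day 5 and 4.21 (SE 0.38) on day 10. Against 0 μM of the same day, Tmem100 was between 7.69-fold and 12.7-fold higher in the day 5 libraries and between 17.2-fold and 20.6-fold higher in those of day 10. For Id4 the fitted value was 0.30 (SE 0.30) on day 5 and -0.61 (SE 0.28) on day 10. Id2 had 0.68 (SE 0.49) and 0.57 (SE 0.50), Id3 had 0.85 (SE 0.58) and 0.78 (SE 0.58), and Id1 had -0.12 (SE 0.44) and 0.10 (SE 0.45) on days 5 and 10. The difference between days was tested as an interaction. It was 0.77 for Tmem100 (SE 0.48, adjusted p 0.717) and -0.91 for Id4 (SE 0.41, unadjusted p 0.0546, adjusted p 0.619). No member passed, beside 0.0112% of the genes tested. At an unadjusted p under 0.05 in edgeR's test the count was 0 of 5, beside 1464 of 17799 genes tested. DESeq2 and limma each gave 0 of 5. With 1 library at 0 μM per day, that library is assumed to vary like the treated ones.

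**Figure D2:**
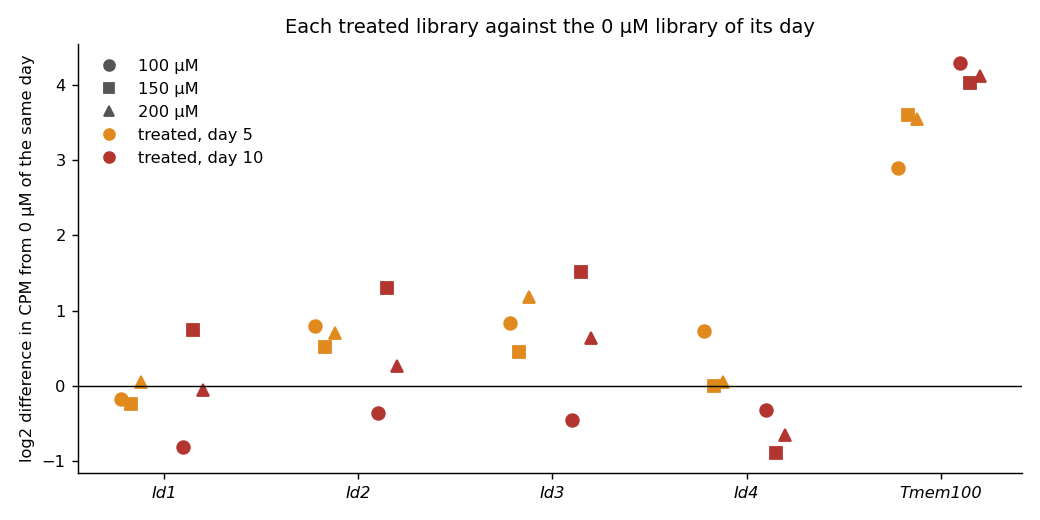
Log2 difference in CPM of each treated library from the 0 μM library of the same day (vertical axis) for the 5 genes, with symbols for dose and colours for day. Tmem100 lies between 2.89 and 4.28 in all 6 libraries, and Id4 lies below 0 in the 3 libraries of day 10.

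Dose was tested as a number from 100 to 200 μM with day as a covariate. Per 100 μM, Id4 had a log2 change of -0.51 (SE 0.19, 95% interval -0.95 to -0.08, unadjusted p 0.0265, adjusted p 0.997), and this did not pass. The values were 0.60 for Id3 (SE 0.49), 0.41 for Id1 (SE 0.41), 0.21 for Tmem100 (SE 0.24) and 0.15 for Id2 (SE 0.46), all with an adjusted p of 0.997 in edgeR's test. None of the 5 members was called, beside 0.006% of the genes tested. Id4 alone of the members had an unadjusted p under 0.05 in edgeR's test, beside 391 of 16664 genes tested. DESeq2 and limma called 0 members. The doses were not ordered alike on the 2 days. On day 5, 150 μM gave the lowest Id1, Id2 and Id3 of the treated libraries, and on day 10 it gave the highest. Without 100 μM on day 10 the values for Id1, Id2 and Id3 were -0.15, -0.48 and -0.04.

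**Figure D3:**
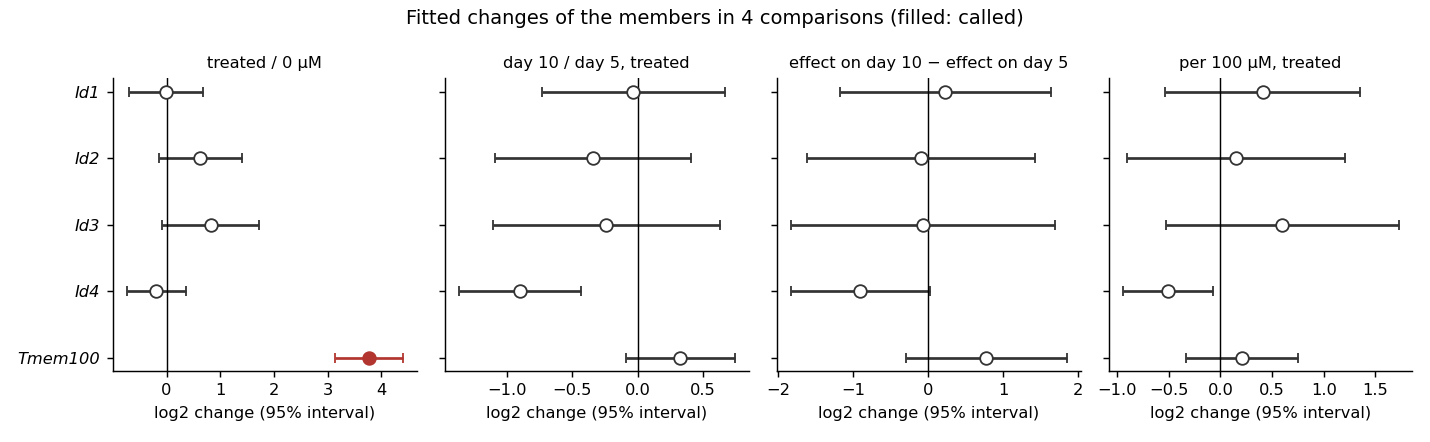
Fitted log2 change with its 95% interval (horizontal axes, each on its own scale) for the 5 genes in the comparison of treated with 0 μM, of day 10 with day 5, of the treatment effect between days and in the trend per 100 μM. Only the filled point, Tmem100 in treated cells at 3.77, was called.

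Id1, Id2 and Id3 varied together from library to library. Over the 6 treated libraries, Pearson's r on log2 CPM was 0.97 for Id1 with Id3, 0.94 for Id2 with Id3 and 0.93 for Id1 with Id2. Over all 10 libraries the values were 0.80, 0.88 and 0.85. All 3 genes were lowest among treated libraries at 100 μM on day 10 and highest at 150 μM on day 10. Between these libraries the levels differed 2.95-fold for Id1, 3.17-fold for Id2 and 3.94-fold for Id3. Tmem100 had the opposite extreme at 100 μM on day 10, where it was highest, and its r with the 3 genes over the treated libraries lay between -0.58 and -0.32. Id4 had r of 0.02 with Id3 and -0.76 with Tmem100 over the same 6 libraries. These correlations describe few points that share treatment and depth, and no test was made. The library of 150 μM on day 10 also stood apart in other ways. Mitochondrial genes took 10.6% of its counts compared to 4.52 to 7.47% in the others, and its 10 most abundant genes took 16.9%. Their part in the level of the Id genes was not tested.

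Genes most like each member over the 10 libraries were sought among 10392 genes. For Tmem100 they were Zfp185, which encodes an actin-associated LIM protein, Dclk1, a microtubule-binding kinase gene, and Acss3, an acyl-CoA synthetase gene, with r of 0.99 each. For Id3 they were the clock repressor gene Cry2 (r 0.97), Fxyd5, for a regulator of the sodium pump (r 0.96), and the asparaginase-like gene Asrgl1 (r 0.94). For Id2 they were Gcdh, for an enzyme of lysine breakdown (r 0.93), Atoh8 (r 0.89) and Id3 (r 0.88). For Id1 they were Hadh, of fatty acid oxidation (r 0.88), Dph5, of diphthamide synthesis (r 0.87), and Imp4, of ribosome assembly (r 0.86). For Id4 they were the zinc finger gene Zfp787 (r 0.97), the transcription factor gene Rfx2 (r 0.95) and Rnf111, for the ubiquitin ligase Arkadia (r 0.92). These values were the highest of many genes over 10 libraries, and no test was made.

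The deposited FPKM values allow the levels of the members to be ordered. At 0 μM the order was Id4 (38.0 on both days), Id3 (29.0 on day 5 and 25.7 on day 10), Id1 (11.1 and 9.26), Id2 (8.04 and 6.69) and Tmem100 (0.593 and 0.424), and no neighbours overlapped over these 2 libraries. In treated cells the mean FPKM was 46.8 ± 19.2 for Id3, 34.9 ± 15.4 for Id4, 11.2 ± 4.09 for Id2, 9.61 ± 3.16 for Id1 and 7.06 ± 1.31 for Tmem100 (SD, n = 6). There Id3 overlapped Id4, and Id2, Id1 and Tmem100 overlapped each other. At 100 μM on day 10, Tmem100 (8.14 FPKM) exceeded both Id1 (4.72 FPKM) and Id2 (4.77 FPKM).

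Which Id gene made up most of the family differed between libraries. Of the summed FPKM of the 4 Id genes, Id4 made up 44.1 and 47.7% at 0 μM and Id3 33.7 and 32.3%. In treated cells Id3 ranged from 31.4 to 58.4% and Id4 from 16.2 to 51.0%. Id4 was the largest at 100 μM on both days, and Id3 was the largest at 150 and 200 μM on both days. The sum was 86.2 and 79.7 FPKM at 0 μM on days 5 and 10. In treated cells it was 121 ± 18.9 FPKM (SD, n = 3) on day 5, with all 3 libraries above 0 μM, and 83.7 ± 32.6 FPKM (SD, n = 3) on day 10, on both sides of it. The sum was described and not tested.

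The partners of the Id proteins were measured in the same libraries. Tcf3, which encodes the E proteins E12 and E47, had a log2 fold change of -0.68 (SE 0.11, adjusted p 0.00072, edgeR), under the fold limit. Tcf4 had 0.06 (SE 0.11, adjusted p 0.704) and Tcf12 had -0.18 (SE 0.08, adjusted p 0.0779). Summed FPKM of the 3 genes was 62.4 to 80.4 in treated libraries compared to 95.9 and 97.9 at 0 μM. In untreated A-5 the sum was 113, and in untreated B-4 it was 77.3, within the treated range. The ratio of summed Id to summed E-protein FPKM was 0.898 and 0.814 at 0 μM, and 0.863 to 1.84 in treated cells. Of 6 treated libraries, 5 lay above both libraries at 0 μM, and 100 μM on day 10 lay between them. The ratio was 0.552 in A-5 and 0.990 in B-4, and B-4 thus also lay above both libraries at 0 μM. Of 13 genes for E proteins and their bHLH partners, 6 were tested, 0 were called higher and 1 lower, with a median log2 change of -0.43. The gene called lower was Scx, for the tendon factor scleraxis, with -1.24 (SE 0.27, adjusted p 0.0048, edgeR). Tcf21 and Msc had 0 counts in all 10 libraries, which allows up to 3 counts in each.

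**Figure D4:**
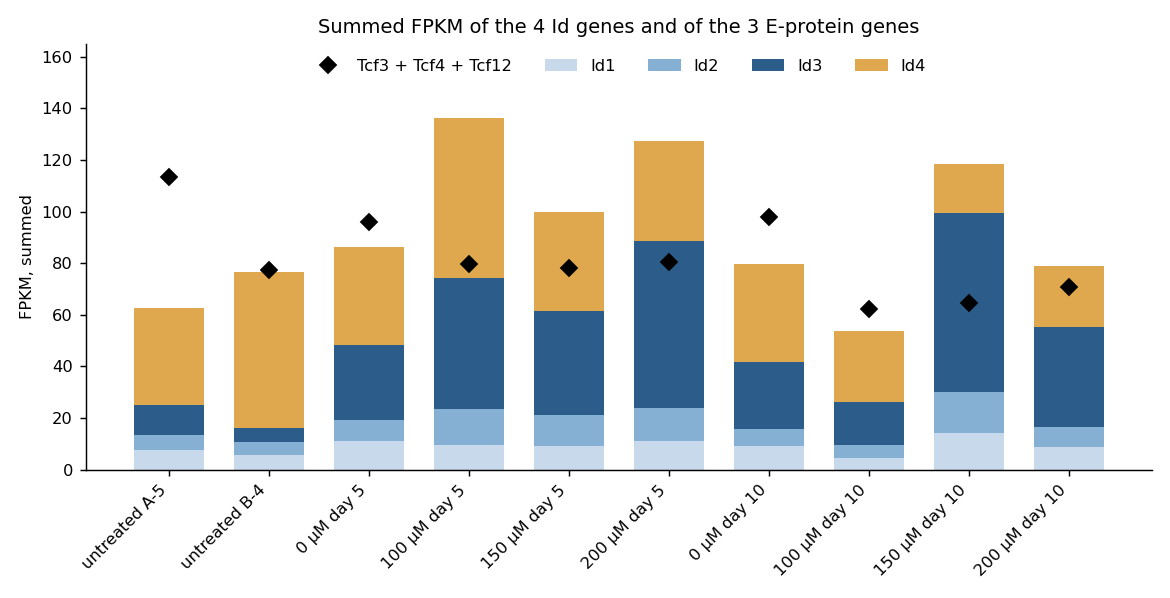
Summed deposited FPKM in each library (vertical axis from 0), with the bar divided into Id1, Id2, Id3 and Id4 and a diamond for the sum of Tcf3, Tcf4 and Tcf12. The Id4 share of the bar is 79.1% in untreated B-4 and 16.2% at 150 μM on day 10.

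The untreated libraries differed from 0 μM and from each other in these genes. Id3 had 16.2 CPM in A-5 and 7.96 CPM in B-4, below the 8 other libraries. Id1 (7.99 and 6.43 CPM) and Id2 (7.95 and 7.33 CPM) also lay below both libraries at 0 μM. Id4 had 157.4 CPM in A-5, near 0 μM, and 268.7 CPM in B-4, at the level of 100 μM on day 5. Tmem100 had 0.394 CPM in A-5, from 12 counts (95% Poisson interval 6.20 to 21.0 counts), and 4.50 CPM in B-4, above 0 μM and below every treated library. The proliferation genes summed to 1903 CPM in A-5 and 228 CPM in B-4. These libraries have no time in their labels, and what changed when they served as controls is given with the alternatives.

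The rest of the pathway was read from lists, beginning with ligands. Of 14 BMP ligand genes, 5 had enough counts to be tested, 3 were called higher and 0 lower, with a median log2 change of 1.61. Gdf6, for a BMP of joints and skull, had 5.46 ± 1.08 CPM (SD, n = 6) in treated cells compared to 2.25 and 1.36 CPM at 0 μM (log2 fold change 1.61, SE 0.21, adjusted p 0.00024, edgeR). Both untreated libraries, with 5.75 CPM in A-5 and 4.93 CPM in B-4, lay within the treated range. The others called were Bmp8a and Bmp8b, under 1 CPM on average. Bmp4 was not called, with 5.91 ± 1.21 CPM (SD, n = 6) in treated cells compared to 5.16 and 5.75 CPM at 0 μM (log2 fold change 0.11, SE 0.22, adjusted p 0.719, edgeR). Bmp2 had 2 counts over all 10 libraries, and Gdf2 (BMP9) and Bmp10, the ligands known for Tmem100, had 7 and 14 counts. Bmp3 had 0. These low genes and Bmp4 fell outside the rule for named genes and were chosen after their values were seen. Counts of mRNA do not measure ligand protein in the cultures. The study grew the cells with fetal bovine serum, and these data do not show which ligands it carried.

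Of 12 receptor and co-receptor genes, 9 were tested, 2 were called higher and 0 lower, with a median log2 change of 0.41. The main receptors did not pass the fold limit. Bmpr1a, for a type I receptor, had a log2 fold change of 0.25 (SE 0.11, adjusted p 0.0755), Acvr1, for another type I receptor, 0.17 (SE 0.14, adjusted p 0.341), and Bmpr2, for the type II receptor, 0.41 (SE 0.10, adjusted p 0.0069) by edgeR. The 2 called were Acvrl1, with 0.231 to 0.583 CPM in treated libraries compared to 0.138 and 0.0948 CPM at 0 μM, and Hfe2, for the co-receptor hemojuvelin, with no count at 0 μM. Both were under 1 CPM on average and were named after their values were seen.

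Of the 4 Smad genes of the pathway, 0 were called. Smad1 had a log2 fold change of -0.17 (SE 0.11, adjusted p 0.223), Smad5 one of 0.15 (SE 0.12, adjusted p 0.337) and the shared partner Smad4 one of -0.27 (SE 0.08, adjusted p 0.0212), all by edgeR. Smad9, itself a BMP target, had the largest value of the 4, 0.72 (SE 0.26, adjusted p 0.0451), also under the fold limit. Their summed level was 153 to 171 CPM in treated libraries compared to 172 and 163 CPM at 0 μM.

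Secreted antagonists, which bind BMPs outside the cell, included the most abundant genes of the pathway. Of 16 listed, 13 were tested, 6 were called higher and 1 lower, with a median log2 change of 0.33. Among those called higher, Chrdl2 and Sost had no count at 0 μM and were under 1 CPM on average. Bmper, which can both block and aid BMPs, had 127 ± 29.1 CPM (SD, n = 6) in treated cells compared to 16.1 and 15.5 CPM at 0 μM (log2 fold change 3.01, SE 0.26, adjusted p 2.5e-05, edgeR). Chrdl1, a chordin-like gene, had 538 ± 255 CPM (SD, n = 6) compared to 175 and 196 CPM (log2 fold change 1.48, SE 0.36, adjusted p 0.0083). Grem1, for the antagonist gremlin, fell, with 13.7 ± 3.07 CPM (SD, n = 6) in treated cells compared to 73.0 and 65.2 CPM (log2 fold change -2.33, SE 0.18, adjusted p 1.2e-05). Nog, for noggin, had 0 counts in all 10 libraries. With the genes absent at 0 μM set to their bound of 3 counts over both libraries, the medians of the receptors and antagonists stayed at 0.41 and 0.33.

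Of 10 genes for inhibitors inside the cell, 2 were called higher and 0 lower, with a median log2 change of -0.03. Smad6 and Smad7, which block BMP receptors and are themselves induced by BMP, had changes of opposite sign, both under the fold limit. Smad6 had a log2 fold change of 0.70 (SE 0.21, adjusted p 0.0245) and Smad7 one of -0.68 (SE 0.20, adjusted p 0.0186) by edgeR. Tob2, for a repressor of Smad action, rose by 1.15 (SE 0.12, adjusted p 8.3e-05).

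Of 15 genes known as BMP-Smad targets beside the members, 13 were tested, 4 were called higher and 0 lower, with a median log2 change of 0.72. The list overlaps those above. Smad6, Smad7, Smad9, Bambi and Nog were already counted there, and Sp7 and Runx2 are also among the osteoblast markers. Bambi (log2 fold change 1.19, SE 0.34, adjusted p 0.0182, edgeR), under 1 CPM on average, was called both here and among the inhibitors. Sp7, the gene of the osteoblast factor osterix, was measured at 81.4 ± 34.3 CPM (SD, n = 6) in treated cells compared to 6.07 and 5.02 CPM at 0 μM (log2 fold change 3.74, SE 0.34, adjusted p 3.1e-05, edgeR). Msx1, a homeobox gene, had a log2 fold change of 1.79 (SE 0.28, adjusted p 0.00079), and Runx2 one of 1.27 (SE 0.12, adjusted p 4.1e-05). In untreated B-4, Msx1 (10.0 CPM), Runx2 (195 CPM) and the antagonist Grem1 (12.0 CPM) lay within the treated range and Tob2 (95.5 CPM) above it. Beside the Id genes, Atoh8 had 0.90 (SE 0.35, adjusted p 0.0644) and did not pass. Over the 6 treated libraries Atoh8 had r of 0.92 with Id3 and 0.91 with Id2, and -0.62 with Tmem100. Sp7 had r of 0.22 with Id3, -0.90 with Id4 and 0.43 with Tmem100. Of 10 tested TGF-β target genes, 0 were called higher and 1, Ctgf, lower (log2 fold change -1.15, SE 0.32, adjusted p 0.0154), with a median of -0.46.

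**Figure D5:**
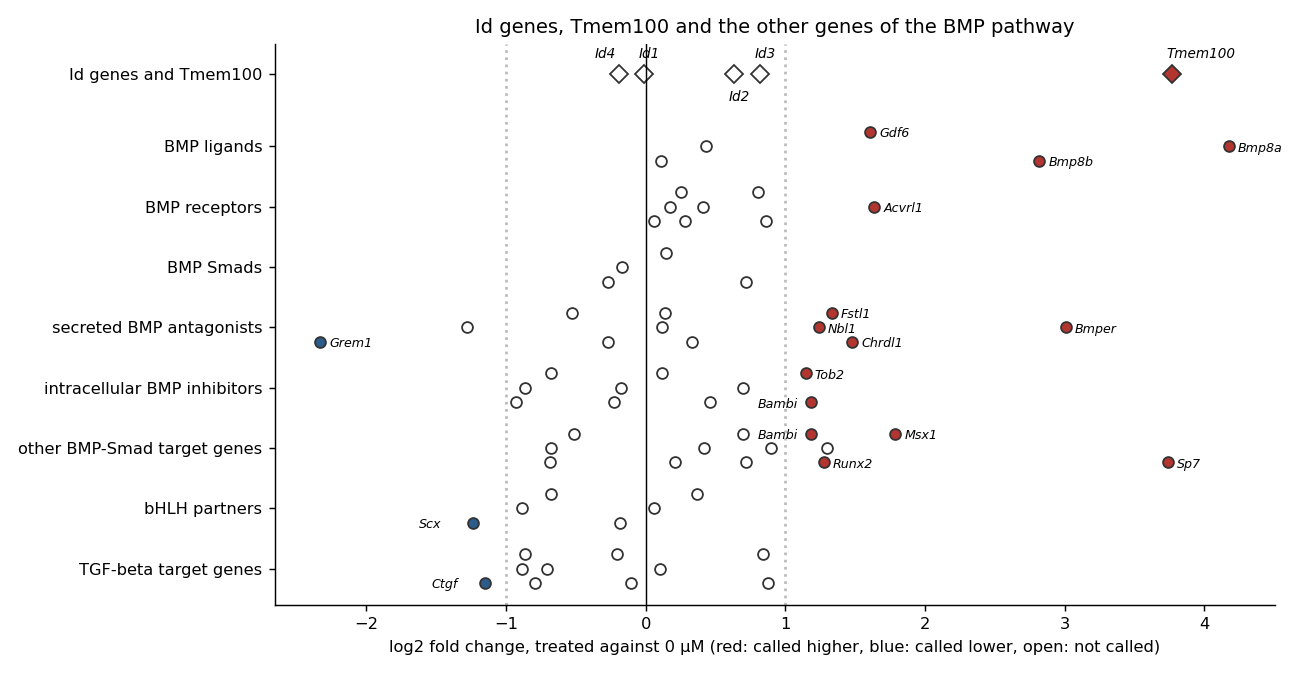
Log2 fold change between treated cells and 0 μM (horizontal axis) of the 5 members (diamonds) and of the tested genes of each list (circles), with called genes filled and named and dotted lines at the fold limit of 1. Hfe2, Chrdl2 and Sost, which had no count in either library at 0 μM, are not plotted. Tmem100 lies at 3.77, near Sp7 at 3.74, and the 4 Id genes lie between -0.19 and 0.82.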

How the data were processed

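The authors extracted RNA, selected mRNA on oligo(dT) beads and made TruSeq libraries. They deposited 1 table with read counts per gene, without normalization, and FPKM values for 10 libraries. The submitters' processing notes name HISAT2 2.0.4 and GATK 3.2-2; the genome build, the annotation and the counting program are not given in the sources used here. The table's 39 columns of the authors' own comparisons were not used. Counts were tested with edgeR 4.0.16 (TMM, filterByExpr, quasi-likelihood) in R 4.3.3, with limma 3.58.1 and DESeq2 1.42.0 as alternatives. Treated cells were compared with 0 μM with day as a covariate, days within treated cells, the treatment effect between days as an interaction, and dose as a number. The last 2 were called at an adjusted p under 0.05 alone. An SE is the absolute log2 change divided by the square root of the quasi-likelihood F, and intervals are at 95%. For correlations, CPM were put on the log2 scale after a prior count of 2 was added (0.1 CPM for the target genes). Scripts were tested on simulated data. Tables were prepared with pandas 2.3.3.

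Named genes are the 5 members, the 3 genes of at least 5 CPM most correlated with each, up to 3 called genes per list of at least 1 CPM, and 11 fixed genes of the pathway. The members and lists were chosen with earlier results of these data known. Alternatives were other tools, scalings and filters, FPKM with pseudocounts of 1 and 0.1, the untreated libraries as controls, Ensembl genes only, no day covariate, dose as a block and each library left out; depth class (above or below 40000000 counts) was added after the data were seen.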

Additional observations from a re-analysis of the deposited data

Results flagged for a closer look

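Among the 6 treated libraries, Tmem100 at 100 μM on day 5 stood apart as the lowest, with a gap to its neighbour of 0.686 of the whole range on the log2 scale. No Id gene had such a gap. About 1 in 20 groups of this size is marked in this way by chance. The library lay 7.69-fold above 0 μM of the same day.

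The untreated library B-4 was left out of the main comparisons and held 2 members above both libraries at 0 μM, beyond the Poisson intervals of the counts. Id4 had 268.7 CPM there compared to 161.3 and 160.8 CPM at 0 μM, and Tmem100 had 4.50 CPM compared to 1.17 and 0.853 CPM. In A-5 neither gene did so. The cause was not tested.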

How the results depend on the processing

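Tmem100 stayed called in treated cells under all 21 alternatives, with log2 fold changes of 2.40 to 4.21. Its value depended on the control. Where the untreated libraries replaced 0 μM it was 2.54 (adjusted p 0.0294, edgeR), compared to 3.77 in the main fit. With B-4 joined to 0 μM it was 2.73 (adjusted p 0.0065, edgeR), and with A-5 joined it was 4.11. The count of members called was 1 with each library left out (1 to 1). It became 2, with Id3 added, where the untreated libraries replaced 0 μM (Id3 2.50, adjusted p 0.0115), joined it (1.43, adjusted p 0.0442) or where A-5 alone joined it (1.14, adjusted p 0.0405), all without day in the model; over all alternatives its adjusted p was 0.0115 to 0.335. In these 3 settings Id1 had 0.57, 0.26 and 0.12, with B-4 joined 0.20 and with Ensembl genes only 0.033, none of them called. Between days the count became 1 (Id4, -1.03, adjusted p 0.0294) with library totals in place of TMM, where the median of all genes was -0.13, and was 0 to 1 with a library left out. For the trend with dose it became 1 (Id3, 0.61, adjusted p 0.0210, compared to at least 0.972 under its other alternatives) when every gene with at least 1 count entered the fit. The cause of these changes was not tested.

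With a library left out, signs turned only in members that had not passed. Between treated cells and 0 μM, Id1 ranged from -0.23 to 0.11 and Id4 from -0.61 to 0.29, the last without 0 μM on day 10. Between days, Id1 ranged from -0.52 to 0.26 and Id3 from -0.82 to 0.12. The interaction ranged from -0.25 to 0.53 for Id1, from -0.69 to 0.20 for Id2 and from -0.65 to 0.30 for Id3. Per 100 μM the range was -0.15 to 0.75 for Id1, -0.48 to 0.51 for Id2, -0.038 to 1.17 for Id3 and -0.16 to 0.55 for Tmem100. Of 285 values of members under alternatives, 254 kept their sign and side of the threshold, 24 turned sign and 7 passed where the reported value had not.

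Over all genes, 3259 were called between treated cells and 0 μM, and 1138 with limma on log2(FPKM + 1), 1538 where the untreated libraries replaced 0 μM, 1739 where both joined it and 1516 where B-4 did. Between days 168 were called, and 277 with DESeq2, 346 without the count filter, 40 and 109 with limma on FPKM with pseudocounts of 1 and 0.1, and 18 to 217 with a library left out; the split was 145 higher and 23 lower with TMM and 133 and 72 with library totals. The interaction gave 2, and 78 with DESeq2, 100 without the filter and 0 to 9 with a library left out. The trend with dose gave 1, and 108 without the filter, 2 with DESeq2 and 0 with limma. With dose as a block, which pairs the days, 211 genes and 0 members were called between days.

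With 2 libraries at 0 μM and none repeated, the intervals of all 4 Id genes in treated cells took in 0, and those of Id2 and Id3 also changes beyond the fold limit. Counts of Tmem100 at 0 μM were 59 and 27, so its fold change rests on few reads there.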
